A study of Rattus norvegicus with 13 samples.

Results

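Brain-derived neurotrophic factor (BDNF) and the receptors of its family were described by 6 genes in the hypothalamus of rats fed 3 diets: the ligands Bdnf and Ntf3, the receptor tyrosine kinases Ntrk2 and Ntrk3, the p75 receptor Ngfr and the sorting receptor Sort1. Each is represented on the array by 1 row that is annotated with that symbol alone, so no choice among rows was needed. They are 6 of 22093 genes so represented, and 4 of them, Ntrk2, Ntrk3, Ngfr and Sort1, were among the 16033 genes bright enough to be tested. Bdnf and Ntf3 fell below that filter, which kept genes whose mean log2 signal was at least the median of all rows, 6.58. Gene identifiers in the annotation were Entrez 24225 for Bdnf, 81737 for Ntf3, 25054 for Ntrk2, 29613 for Ntrk3, 24596 for Ngfr and 83576 for Sort1.

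The rats were male Sprague-Dawley animals that arrived at 6 to 7 weeks of age and were 14 to 15 weeks old when the tissue was taken, after 2 months on the diet. The low-fat control diet (LF-CD, 4 arrays) supplied 16% of energy from soybean oil, the flaxseed diet (HF-FD, 4 arrays) supplied 35% from flaxseed oil, which is high in alpha-linolenic acid, an omega-3 fat, and the safflower diet (HF-SD, 5 arrays) supplied 35% from safflower oil, the omega-6 source of the study. Each high-fat diet differs from the control in both the amount and the kind of oil, so these cannot be told apart in a comparison with the control. Arrays are called by diet and replicate number (low-fat 1), and the labels do not say whether an array held RNA of 1 rat, so p-values measure the spread between arrays only.

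BDNF and neurotrophin 3 are secreted growth factors of neurons. BDNF binds the tyrosine kinase TrkB, encoded by Ntrk2, and neurotrophin 3 binds TrkC, encoded by Ntrk3; both receptors signal through the MAP kinase, PI3 kinase and phospholipase C pathways. The uncleaved precursors bind p75, encoded by Ngfr, together with sortilin, encoded by Sort1, which also sorts BDNF into secretory vesicles. In the hypothalamus, BDNF and TrkB restrain feeding, and reduced BDNF or TrkB gives overeating and obesity in mice.

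Bdnf is transcribed from several alternative start sites, and a single array row cannot tell their transcripts apart. The RefSeq promoter table (GRCr8) lists 6 starts for Bdnf, 3 for Ntf3 and 1 for Sort1, which makes 3 of the 6 genes matched; Ntrk2, Ntrk3 and Ngfr are not listed. One window is printed because it alone, among the 6 Bdnf windows of 250 bases before a start, holds one of the cAMP response element motifs searched, TCACGTCA or TGACGTCA, which the factor CREB binds. It is the last 120 bases before the fourth listed start, at chr3:116637738-116637857 on the plus strand, written 5′ to 3′ with the response element in capitals.
Bdnf start 4: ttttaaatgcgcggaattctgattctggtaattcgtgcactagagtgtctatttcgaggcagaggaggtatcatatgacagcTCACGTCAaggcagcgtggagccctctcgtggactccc
The capitals run from 38 to 31 bases before the start. The 8 letters TCACGTCA, searched on both strands, occur in 0.350% of 33469 windows of 250 bases. The palindrome TGACGTCA, the textbook element, occurs in 1.59% of windows and in none of the 6 Bdnf windows. Both motifs include the shorter element TGACG when both strands are read, and 18.2% of windows hold that element. CREB is known from cultured rat neurons to drive a Bdnf promoter after calcium entry; the match describes the letters only.

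All 15 marker genes of the hypothalamus lay above the 95th percentile of the olfactory receptor genes on all 13 arrays. So did all 9 neuron, 10 astrocyte, 8 microglia, and 8 endothelial and mural markers, and 5 of 7 skeletal muscle markers. The share of all genes above that level was not counted, so this count does not single out the hypothalamus. The 1128 olfactory receptor genes, which are little used outside the nose, served here as a reading of background signal. Their median was 4.75 ± 0.04 (SD, n = 5) on safflower arrays, 4.87 ± 0.05 (n = 4) on flaxseed arrays and 5.03 ± 0.08 (n = 4) on low-fat arrays. The spread between the quartiles of tested genes went the other way, at 1.58 ± 0.06, 1.46 ± 0.05 and 1.36 ± 0.03. The 4 low-fat arrays therefore had a higher floor and a narrower range of signal than the 5 safflower arrays, without overlap in either measure (exact two-sided permutation p = 0.00794 for each, the smallest this design allows; 0.0952 after Benjamini-Hochberg adjustment over 60 such tests). For that reason the deposited log2 values are given beside values in which every array was forced to 1 distribution (quantile normalization), and the values of the 6 genes are given under both.

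Bdnf gave a signal in the range of the background. Deposited log2 values were 6.57, 6.44, 6.29 and 6.45 on low-fat arrays 1 to 4, 6.42, 6.36, 6.43 and 6.23 on flaxseed arrays 1 to 4, and 6.33, 6.28, 6.34, 6.33 and 6.36 on safflower arrays 1 to 5. The values of the 3 diets overlapped, and the safflower arrays were the tightest. On 0 of 13 arrays did Bdnf exceed the 95th percentile of the olfactory receptors, which ran from 6.57 to 7.07.

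Safflower minus low-fat came to -0.11 on the log2 scale for Bdnf (95% CI -0.24 to 0.03), and flaxseed minus low-fat to -0.07 (-0.22 to 0.07). Neither passed when all 22093 genes were tested without the signal filter (limma, adjusted p = 0.172 and 0.501). The sign turned with the scaling: after quantile normalization safflower minus low-fat was 0.11 (-0.03 to 0.26, adjusted p = 0.292). Quantile-normalized values were 6.402, 6.34, 6.18 and 6.35 on low-fat arrays and 6.48, 6.37, 6.46, 6.32 and 6.52 on safflower arrays, which still overlap. Cyclic loess, another between-array scaling, gave 0.13 (0.02 to 0.24, adjusted p = 0.0913) with the 5 safflower arrays above the 4 low-fat arrays. The share of all genes whose groups separate with cyclic loess was not counted, so this separation cannot be weighed against other genes. In deposited values the safflower minus low-fat difference was -0.16 without low-fat 3, which passed (adjusted p = 0.0455), and -0.062 without low-fat 1 (0.431). Bdnf did not pass in 12 of the fits that left out 1 array. With all arrays and no signal filter, 27.6% of 22093 genes were called lower. With the sign set by the scaling, no direction can be given for Bdnf.

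Ntf3, the ligand of TrkC, was also dim. Its deposited values were 6.88, 6.78, 6.52 and 6.67 on low-fat arrays, 6.47, 6.53, 6.66 and 6.32 on flaxseed arrays, and 6.49, 6.42, 6.63, 6.33 and 6.55 on safflower arrays. Only safflower 3 stood above the olfactory 95th percentile of its own array. Low-fat 1, 2 and 4 stood above all 9 high-fat arrays, and low-fat 3 lay among them.

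Without the signal filter, Ntf3 was lower on safflower than on low-fat arrays by a log2 difference of -0.23 (SE 0.086, 1.17-fold lower, limma adjusted p = 0.0412), in a comparison where 27.6% of 22093 genes were called lower. The call was lost in 8 of the 13 fits that left out 1 array (adjusted p up to 0.133, without low-fat 1, where the difference was -0.17) and with ordinary least squares (0.0652). Quantile normalization took the difference to -0.02 (adjusted p = 0.918) and cyclic loess to 0.00 (adjusted p = 0.992). The olfactory receptor median moved in the same direction, by -0.28, and its part in the Ntf3 value was not tested. Flaxseed minus low-fat was -0.22 in deposited and -0.12 in quantile-normalized values (adjusted p = 0.202 and 0.682), and safflower minus flaxseed was -0.01 (adjusted p = 0.957).

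**Figure D1:**
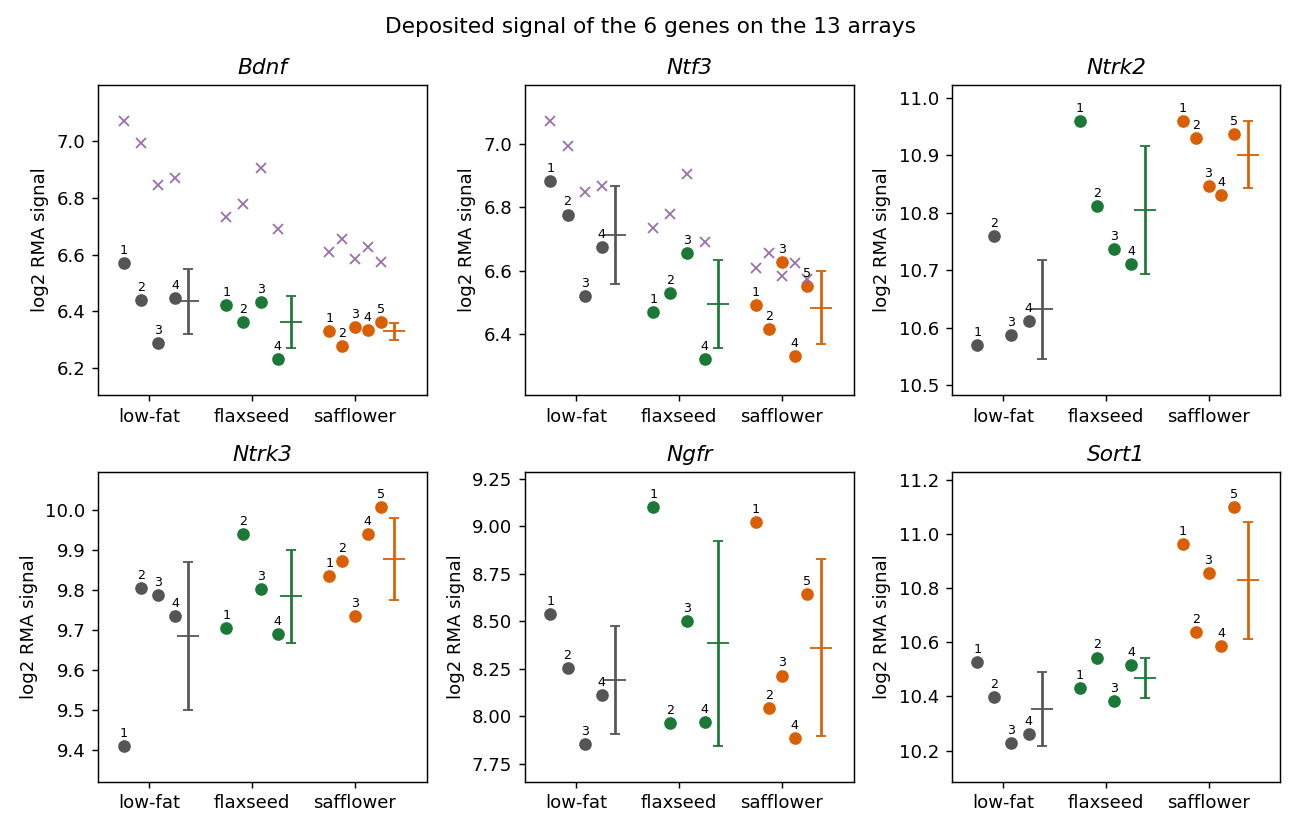
Deposited log2 RMA signal (vertical axes, each with its own range) of the 6 genes on each array, by diet; numbers are replicate numbers, and the bar beside each group is the mean ± SD (n = 4, 4 and 5). Crosses in the Bdnf and Ntf3 panels are the 95th percentile of olfactory receptor genes on the same array, which Bdnf does not reach on any array. The safflower points lie above the low-fat points for Ntrk2 and Sort1 with this scaling.

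Ntrk2, the BDNF receptor, gave a strong signal on all 13 arrays. Deposited values were 10.57, 10.76, 10.59 and 10.61 on low-fat arrays, 10.96, 10.81, 10.74 and 10.71 on flaxseed arrays, and 10.96, 10.93, 10.85, 10.83 and 10.94 on safflower arrays. The lowest safflower array stood above the highest low-fat array, and the flaxseed arrays spanned the gap between them.

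In deposited values Ntrk2 was 1.21-fold higher on safflower than on low-fat arrays, a log2 difference of 0.27 (SE 0.064, 95% CI 0.13 to 0.40, limma adjusted p = 0.00702), but after quantile normalization the difference was -0.03 (SE 0.20, -0.46 to 0.40, adjusted p = 0.935). Of all tested genes, 39.8% were called in this comparison with deposited values, 22.9% higher and 16.9% lower, and 26.0% had groups that did not overlap. Of the 4 tested genes described here, 2 were called higher, Ntrk2 and Sort1, and the same 2 had groups that did not overlap. With quantile normalization 14.6% of tested genes were called, 10.1% higher and 4.51% lower, 15.4% had groups that did not overlap, and none of the 4 was called or separated. With cyclic loess 19.3% were called, 13.1% higher and 6.21% lower, and again none of the 4.

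The loss of the Ntrk2 difference can be followed array by array. Quantile-normalized values were 11.39, 11.19, 10.57 and 10.59 on low-fat arrays, 11.45, 10.68, 10.66 and 10.57 on flaxseed arrays, and 11.09, 10.79, 11.04, 10.65 and 10.94 on safflower arrays. The normalization raised low-fat 1 by 0.82, flaxseed 1 by 0.49 and low-fat 2 by 0.43, and moved each of the other 10 arrays by 0.20 or less. Low-fat 1 thereby went from the lowest of the 13 Ntrk2 values to the second highest. The within-diet SD of low-fat arrays grew from 0.09 to 0.42 and that of flaxseed arrays from 0.11 to 0.41. Without low-fat 1, the quantile-normalized difference was 0.12 (SE 0.21, adjusted p = 0.730), and without flaxseed 1 it was -0.03 with an SE of 0.16.

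**Figure D2:**
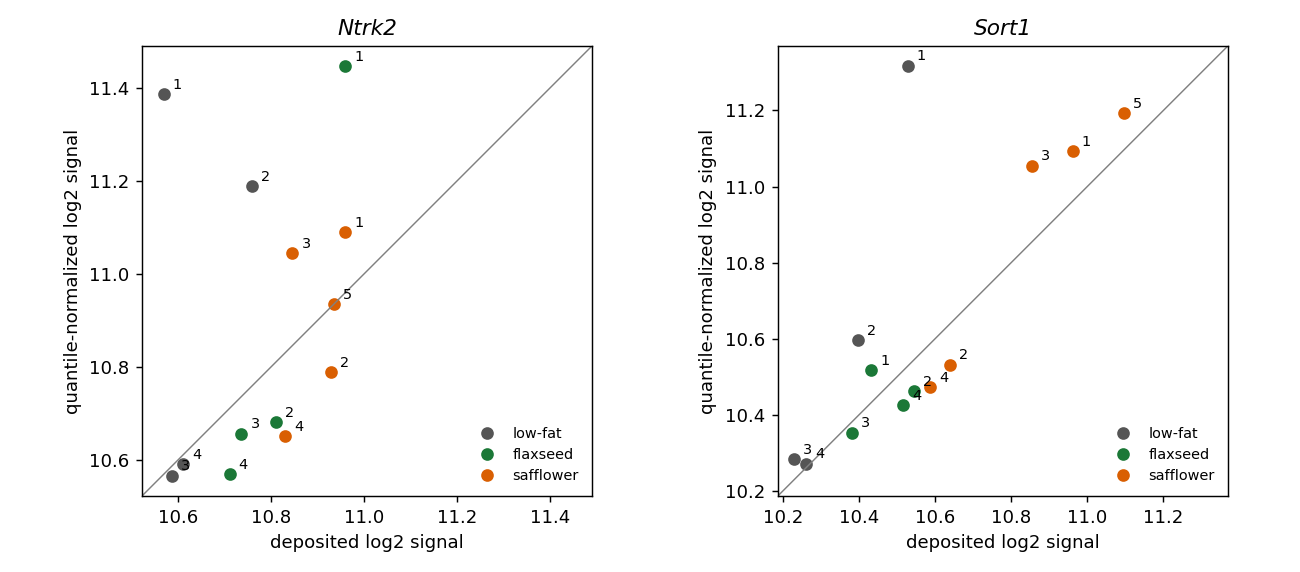
Quantile-normalized against deposited log2 signal of Ntrk2 (left) and Sort1 (right), 1 point per array, labelled by replicate number and coloured by diet; the grey line marks equal values. Low-fat 1 lies farthest above the line for both genes, 0.82 for Ntrk2 and 0.79 for Sort1.

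Ntrk3, the receptor of neurotrophin 3, gave deposited values of 9.41, 9.80, 9.79 and 9.73 on low-fat arrays, 9.70, 9.94, 9.80 and 9.69 on flaxseed arrays, and 9.83, 9.87, 9.73, 9.94 and 10.01 on safflower arrays. The groups overlapped, and low-fat 1 stood below the other 12 arrays. Safflower minus low-fat was 0.19 (95% CI 0.01 to 0.38, limma adjusted p = 0.0859), which did not pass, and without low-fat 1 it was 0.10 (adjusted p = 0.291). After quantile normalization the difference was 0.00 (-0.17 to 0.17). That interval ends at a 1.13-fold rise and was the narrowest of the 4 tested genes.

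Ngfr, the p75 receptor, varied more between arrays than the other 5 genes, over a log2 range of 1.24 against 0.34 to 0.87. Deposited values were 8.54, 8.26, 7.86 and 8.11 on low-fat arrays, 9.10, 7.96, 8.50 and 7.97 on flaxseed arrays, and 9.02, 8.04, 8.21, 7.88 and 8.64 on safflower arrays. The array numbered 1 was the highest of its diet in all 3 groups, and the labels do not say what arrays of the same number share. Quantile normalization changed little here, with values of 8.59, 8.29, 7.88 and 8.09, then 9.07, 7.95, 8.51 and 7.99, then 8.97, 8.07, 8.21, 7.88 and 8.58 in the same order.

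The diets could not be separated by Ngfr. Safflower minus low-fat was 0.17 (95% CI -0.36 to 0.70, limma adjusted p = 0.597) with deposited and 0.13 (-0.41 to 0.67) with quantile-normalized values, and flaxseed minus low-fat was 0.19 (-0.37 to 0.76, adjusted p = 0.677) and 0.17. Leaving out safflower 1 took safflower minus low-fat to 0.01, and leaving out flaxseed 1 turned flaxseed minus low-fat to -0.04. The deposited interval for safflower over low-fat runs from 0.779 to 1.63 times the low-fat level.

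Sort1, the sortilin gene, showed the largest difference of the 6 genes with deposited values. They were 10.53, 10.40, 10.23 and 10.26 on low-fat arrays, 10.43, 10.54, 10.38 and 10.52 on flaxseed arrays, and 10.96, 10.64, 10.85, 10.59 and 11.10 on safflower arrays. All 5 safflower arrays stood above all 8 others, and safflower 1, 3 and 5 were higher than safflower 2 and 4.

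Sort1 was 1.39-fold higher on safflower than on low-fat arrays in deposited values, a log2 difference of 0.47 (SE 0.098, 95% CI 0.26 to 0.68, limma adjusted p = 0.00467). After quantile normalization it was 0.25 (SE 0.20, -0.19 to 0.69, adjusted p = 0.427) and after cyclic loess also 0.25 (adjusted p = 0.339), so the direction held and the call did not. Quantile-normalized values were 11.32, 10.60, 10.28 and 10.27 on low-fat arrays, 10.52, 10.46, 10.35 and 10.42 on flaxseed arrays, and 11.09, 10.53, 11.05, 10.47 and 11.19 on safflower arrays. Low-fat 1, raised by 0.79, became the highest of all 13. Leaving it out gave 0.50 for the quantile-normalized difference, and leaving out low-fat 4 gave 0.13.

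Against flaxseed, the diet with the same share of fat, Sort1 on safflower arrays was higher by 0.36 in deposited values (SE 0.098, 95% CI 0.15 to 0.57) and by 0.43 after quantile normalization (SE 0.20, -0.01 to 0.87). Neither passed over all genes (limma adjusted p = 0.246 and 0.571; unadjusted 0.00238 and 0.0534). In this comparison 0% of tested genes were called, with 2480 of 16033 at an unadjusted p under 0.05, and 5.89% of tested genes had groups that did not overlap in deposited values, Sort1 among them. The other 3 tested genes differed by 0.10 (Ntrk2), 0.09 (Ntrk3) and -0.02 (Ngfr), with adjusted p from 0.447 to 0.971.

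Flaxseed against low-fat also called 0% of tested genes, with 3226 at an unadjusted p under 0.05. Ntrk2 was nearest among the 4, at 0.17 in deposited values (95% CI 0.03 to 0.32, limma adjusted p = 0.215) and -0.09 after quantile normalization. Sort1 was at 0.11 and -0.18, and Ntrk3 at 0.10 and -0.03. The sign of all 3 thus depended on the scaling, and no direction can be given. The comparisons share arrays: low-fat enters both high-fat differences.

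**Figure D3:**
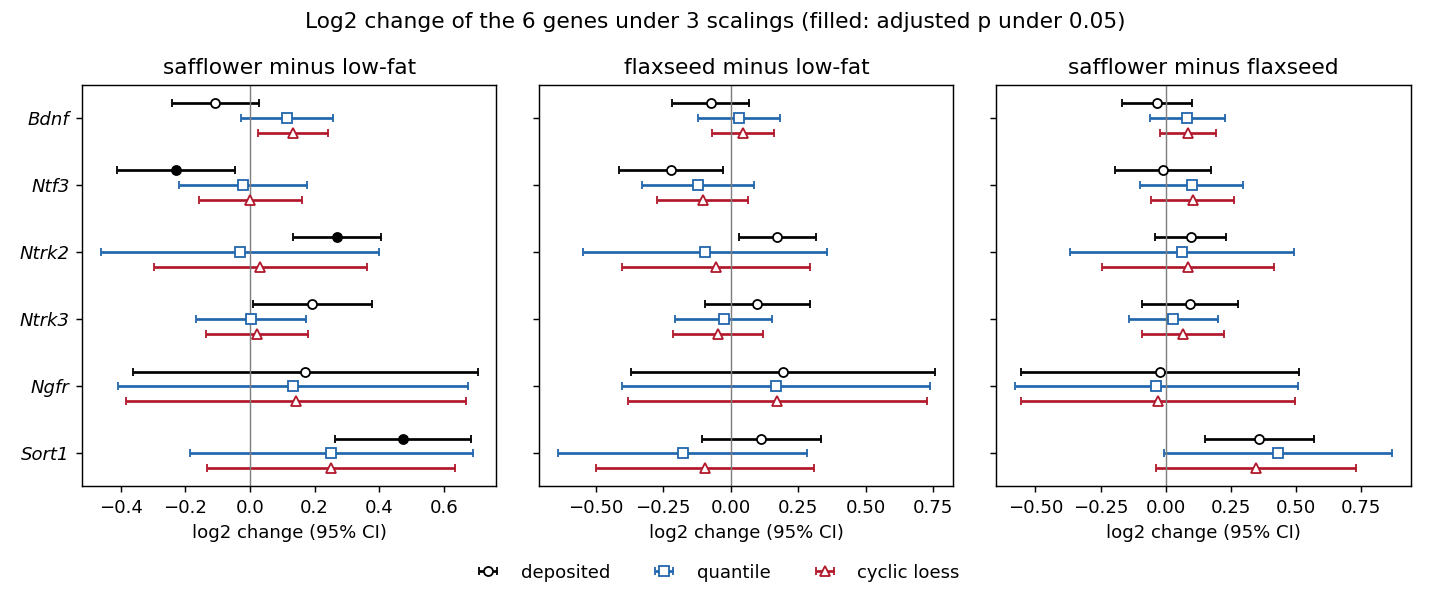
Log2 change of each gene (points) with its 95% confidence interval (bars) in the 3 comparisons, from deposited, quantile-normalized and cyclic loess values; Bdnf and Ntf3 come from the fit without the signal filter. Filled symbols passed an adjusted p of 0.05: Ntf3, Ntrk2 and Sort1 in safflower minus low-fat with deposited values only. The change of Ntrk2 in that panel goes from 0.27 to -0.03 with quantile normalization.

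Signal strength went with the deposited differences. When tested genes were ordered by mean signal and cut into 10 equal parts, the median safflower minus low-fat change was 0.26 in the brightest part (quartiles 0.18 and 0.33), which holds Ntrk2, Ntrk3 and Sort1, and 0.08 in part 6, which holds Ngfr. Ntrk2 at 0.27 and Ntrk3 at 0.19 lay between the quartiles of their part. Sort1 at 0.47 lay above the upper quartile, and it did so after quantile normalization too, at 0.25 against an upper quartile of 0.11. The higher floor of low-fat arrays moves with this pattern, and its part in the Ntrk2 and Sort1 values was not tested.

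**Figure D4:**
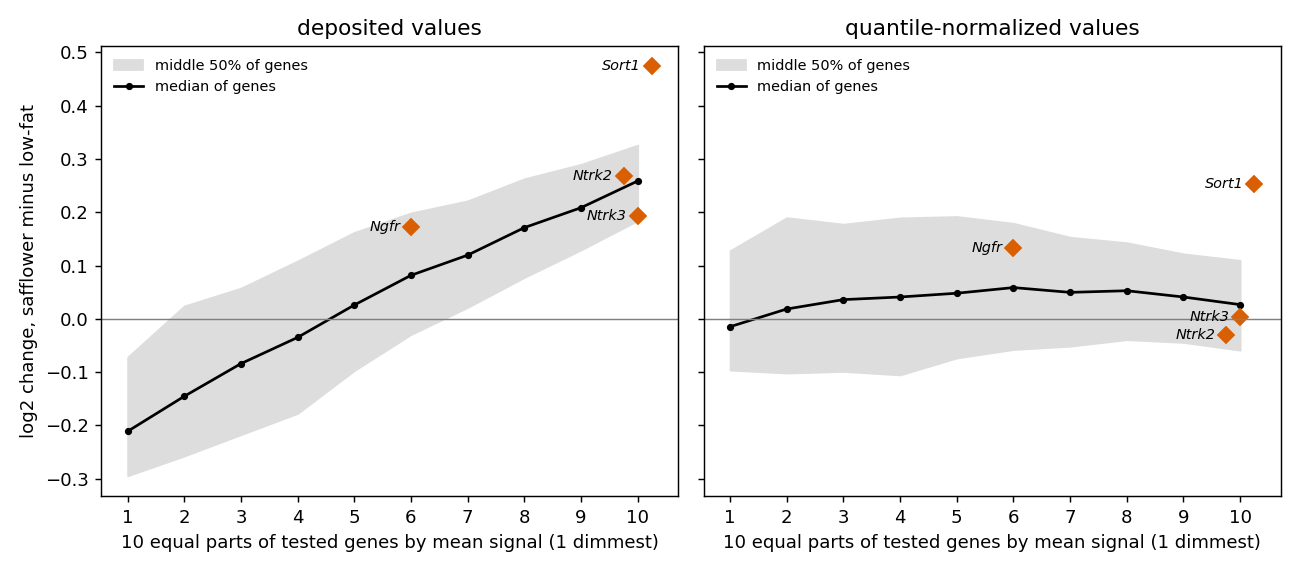
Safflower minus low-fat log2 change against 10 equal parts of the tested genes by mean signal, from deposited values (left) and quantile-normalized values (right); the line is the median of all genes in a part and the grey band runs from the lower to the upper quartile. Diamonds are the 4 tested genes. Ntrk2 lies within the band in both panels and Sort1 above it in both.

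The rest of the neurotrophin pathway was read from 108 other genes, of which 97 were on the array and 94 were tested. Safflower minus low-fat called 34 higher and 3 lower with deposited values, where 39.8% of all tested genes were called. With quantile normalization 7 were higher and 1 lower, 8 of 94 against 14.6% of all tested genes. With cyclic loess 11 were higher and 1 lower, 12 of 94 against 19.3%. The median change was 0.18 against 0.07 over all tested genes in deposited values, and 0.06 against 0.04 with quantile normalization. Over the 10 parts of tested genes by signal, the deposited median rose from -0.21 to 0.26, and the list was not matched for signal. No gene of the list was called for flaxseed against low-fat (17 at an unadjusted p under 0.05) or for safflower against flaxseed (11).

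Nearest to the receptors, Ntf4, a further ligand of TrkB, came to -0.20 in deposited and -0.16 in quantile-normalized values (limma adjusted p = 0.0568 and 0.168) and did not pass. Among 7 tested co-receptors and relatives of sortilin, Sorcs1, a sorting receptor, was called higher at 0.26 (adjusted p = 0.0273), while Sorl1, another of the same family, was at 0.29 and did not pass (adjusted p = 0.0700). Quantile normalization put Sorcs1 at 0.14 and Sorl1 at 0.11, and called neither. Of 6 tested genes on the list for neurotrophin precursor cleavage, Plg, which encodes plasminogen, was called lower at -0.21. Plat, which encodes an activator of plasminogen, was at 0.24 and did not pass. The quantile-normalized values were -0.03 for Plg and 0.05 for Plat.

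Among the signalling genes downstream, 11 of 23 Trk adaptors and modulators were called higher and 1 lower, 6 of 13 p75 adaptors and effectors higher, and 14 of 26 genes of the MAP kinase and PI3 kinase arms higher, in deposited values, where 22.9% of all tested genes were called higher and 16.9% lower. With quantile normalization the same lists had 1 higher and 1 lower, 2 higher and 3 higher, against 10.1% higher and 4.51% lower. Of the 18 tested BDNF transcription regulators and responsive genes, 2 were called higher and 1 lower in deposited values. Quantile normalization called 1 of these 18 higher and 0 lower. Kidins220, a TrkB-binding scaffold, rose by 0.31 and Sos1, an activator of Ras, by 0.40 in deposited values, and quantile normalization gave 0.09 and 0.22 with neither called. Rac1, a small GTPase, stood at 0.28 and Camk2d, a calcium-dependent kinase, at 0.39, against 0.02 and 0.19 after quantile normalization.

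Of the list, 7 of 94 genes were called in the same direction with deposited, quantile-normalized and cyclic loess values, as were 1702 of all 16033 tested genes and 0 of the 4 tested receptors. Rps6ka3, the kinase RSK2 at the end of the MAP kinase arm, was higher by 0.46 in deposited and 0.48 in quantile-normalized values (adjusted p = 0.00409 and 0.0111). Traf6, an adaptor that binds p75, was higher by 0.35 and 0.29, and Ripk2, which binds the death domain of p75, by 0.21 and 0.25. The catalytic PI3 kinase subunits Pik3ca and Pik3cb were higher by 0.35 and 0.26 in deposited values and by 0.25 and 0.28 after quantile normalization. Rest, a repressor of neuronal genes, Bdnf among them, was higher by 0.18 and 0.35. Sh2b3, an adaptor of receptor kinases, was lower, at -0.16 and -0.21.

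Genes with the array profile most like each of the 6 were taken as the 3 highest Pearson correlations of quantile-normalized values over the 13 arrays; arrays share depth of signal and diet, so these r describe likeness only. For Ntrk2, Cd99l2, Ubap2l and Timp2 each reached 0.99, and 622 genes exceeded 0.9, with flaxseed 1 and low-fat 1 the farthest arrays. In deposited values Cd99l2, Ubap2l and Timp2 were at 0.87, 0.93 and 0.83, and 197 genes exceeded 0.9. For Ntrk3 the nearest were Fat1, Tanc2 and Ep400, each at 0.87, and none exceeded 0.9. For the dim ligands they were Thg1l, Slc35b2 and Ddx59 at 0.96 (Bdnf) and Gnmt, Mettl27 and Zfp180 at 0.94 to 0.95 (Ntf3). In deposited values these r were, in the same order, 0.83, 0.40 and 0.77 for Bdnf and 0.96, 0.84 and 0.58 for Ntf3.

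For Ngfr the nearest were Dnph1 at 0.90 and Wfs1 and Gadd45g at 0.89. Slc18a3, the vesicular acetylcholine transporter and a marker of cholinergic neurons, was looked up after its values were seen. It correlated with Ngfr at 0.88 in quantile-normalized and 0.93 in deposited values, and at 0.95 in deviations of deposited values from the diet means. Without flaxseed 1 and safflower 1, the arrays farthest from the median of Ngfr, the quantile-normalized r was 0.83. Slc18a3 ran from 6.696 on safflower 4 to 8.05 on safflower 1. The other cholinergic genes examined, Chat and Slc5a7, correlated with Ngfr at 0.74 and 0.65, and at 0.90 and 0.82 without those 2 arrays, so the 3 genes have no stable order of likeness. p75 is known from the cholinergic neurons of the rat basal forebrain, which borders the hypothalamus, and the part of such cells in the Ngfr values was not tested. In bulk tissue fewer cells of a type and less RNA per cell cannot be told apart.

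For Sort1 the nearest were Lmbrd1 at 0.98 and Pcsk6 and Sh3gl2 at 0.97. Pcsk6 encodes a proprotein convertase and was on the list for neurotrophin precursor cleavage. Several myelin genes, also looked up after values were seen, lay close to Sort1 in quantile-normalized values. They were Ndrg1 at 0.97, Cldn11, a tight junction protein of myelin, at 0.96, and Cnp and Mal at 0.94. Mobp was at 0.88, Mag at 0.85, Ermn at 0.75 and Opalin at 0.49, with Mog only at 0.36 and Mbp at 0.27. In deposited values r was 0.85 to 0.89 for Ndrg1, Cldn11, Cnp, Mal and Mag, and 0.78 for Opalin. Ermn was then at 0.65, Mbp at 0.62, Mog at 0.60 and Mobp at 0.48. Low-fat 1 and safflower 5 were the arrays farthest from the median of Sort1. Without them the quantile-normalized r was 0.95 for Ndrg1, 0.92 for Cldn11, 0.90 for Cnp and 0.88 for Mal. Mobp, Mag, Ermn and Opalin were at 0.79, 0.71, 0.65 and 0.56, and Mog and Mbp at 0.27 and 0.09. In deviations of deposited values from the diet means, Cldn11 was at 0.96, Ndrg1 at 0.94, Mbp at 0.45, Mog at 0.42 and Mobp at 0.27. Of 16032 genes, 107 exceeded 0.9 with Sort1 in quantile-normalized values. Cldn11 was highest on safflower 5, 1 and 3, at 11.16, 10.93 and 10.79 in deposited values, the same 3 arrays on which Sort1 was highest. All 9 oligodendrocyte marker genes on the array stood above the olfactory 95th percentile on every array, as did all 9 neuron and 10 astrocyte markers. Their mean signal ran from 9.99 to 10.61 on safflower, from 9.87 to 10.12 on low-fat and from 9.41 to 10.09 on flaxseed arrays, and safflower minus low-fat was 0.36 (exact two-sided permutation p = 0.0794, adjusted p = 0.207), or 0.16 with quantile-normalized values (exact p = 0.492). The part of oligodendrocytes in the Sort1 difference was not tested.

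**Figure D5:**
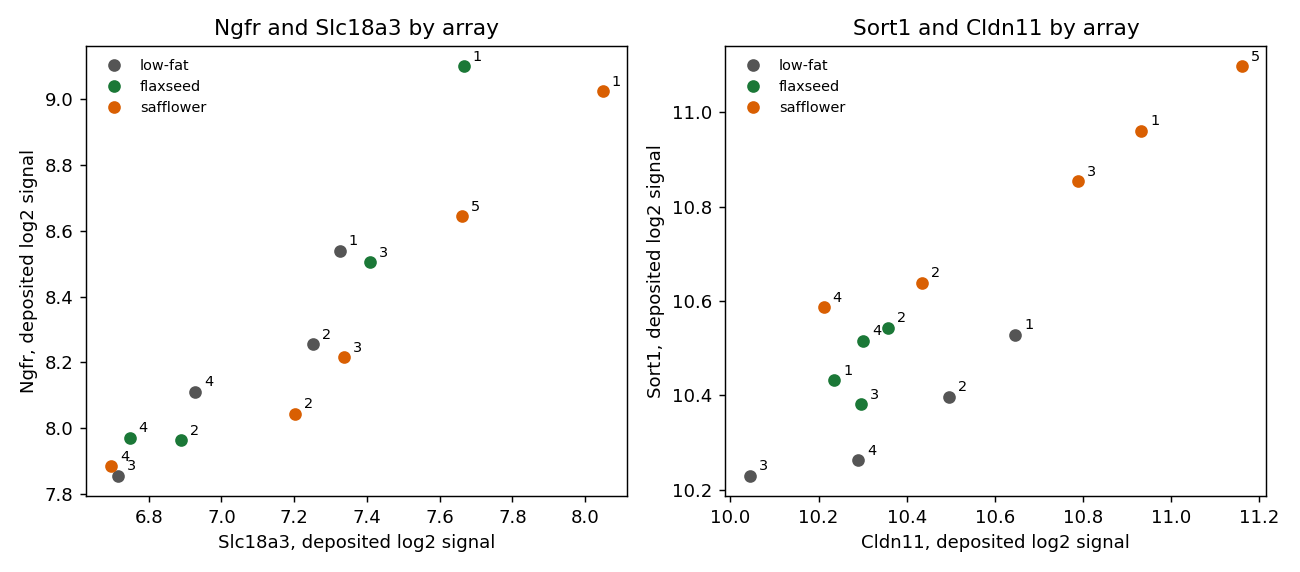
Deposited log2 signal of Ngfr against Slc18a3 (left) and of Sort1 against Cldn11 (right), 1 point per array, labelled by replicate number and coloured by diet. Within each diet Ngfr is highest on the array where Slc18a3 is highest, and safflower 5, 1 and 3 lie at the upper right for Sort1 and Cldn11.

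Markers of other cells were recorded beside these results, and their part in them was not tested. Neuron markers averaged 11.05 ± 0.16 on safflower and 10.71 ± 0.14 on low-fat arrays (exact two-sided permutation p = 0.0238, adjusted p = 0.143). Ntrk2 differed in the same direction in deposited values, as did the median gene of the brightest of the 10 parts by signal, at 0.26. With quantile normalization the neuron marker difference was 0.20 (exact p = 0.413). Astrocyte markers, from cells that also carry TrkB in a truncated form, averaged 10.04 ± 0.10 and 9.88 ± 0.12 (p = 0.0556 by the same exact test, adjusted p = 0.201), and the difference turned to -0.044 with quantile normalization (exact p = 0.802). Pituitary markers, 3 of 8 of which stood above the olfactory 95th percentile on all arrays, were lower on safflower than on low-fat arrays, by -0.43 in deposited values (exact p = 0.0397, adjusted p = 0.170) and -0.29 with quantile normalization (exact p = 0.0794). Skeletal muscle markers were higher on all 4 low-fat arrays, at 7.72 to 9.55 with low-fat 3 the highest, than on the high-fat arrays, at 7.36 to 7.65. Their safflower minus low-fat difference was -0.80 in deposited and -0.73 in quantile-normalized values (exact p = 0.00794 and adjusted p = 0.0952 for each), and flaxseed minus low-fat was -0.69 and -0.68 (exact p = 0.0286 and adjusted p = 0.143 for each). Without low-fat 3 the deposited difference was 0.25 for Ntrk2 and 0.43 for Sort1, both still called (limma adjusted p = 0.0117 and 0.00741). The quantile-normalized differences without low-fat 3 were -0.14 and 0.14, neither called (limma adjusted p = 0.633 and 0.669). The other low-fat arrays also exceeded the high-fat arrays in muscle markers, so leaving out 1 array cannot show the part of muscle.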

How the data were processed

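Hypothalamic RNA was measured on 13 arrays in 3 diet groups, assigned from the sample labels. The deposited table holds log2 signals of 70580 transcript clusters and controls; the log2 values were deposited by the authors after RMA in Affymetrix Expression Console, per the submitters' processing notes, which also name Transcriptome Analysis Console. For the genome build, the sources used here give no name. RMA normalizes probes before summarising them, yet array medians of the deposited values still ranged from 6.42 to 6.74, so a difference can depend on further scaling. The 1738 control features were left out, rows with exactly 1 symbol were kept (23446; 505 had several and 44891 none), and the brightest row per gene was used. Of the 23446 rows with 1 symbol, 22077 had a gene identifier that matched RefSeq, and 1 symbol was updated. Groups were compared with limma 3.58.1 (lmFit, eBayes) in R 4.3.3 on all arrays, with Benjamini-Hochberg adjustment over 16033 genes and a threshold of 0.05. The fits were also run on simulated data with independent noise per gene. That simulation held no array-wide difference in floor or range, so it cannot show how scaling affects the calls. Array summaries used exact permutation tests over all splits of the arrays (Python 3.11.15 with numpy 2.4.6). Precision is limited by the array number. The genes and lists were chosen with earlier results of these data known. Pathway genes were named from the 2 with the smallest p of each sub-list in safflower minus low-fat, and from those called under 3 scalings. Pdpk1 and Homer1, which met the first rule, were not described. The 3 most similar genes of each member were also named. Alternatives were quantile normalization, cyclic loess, median centring, no filter, a replicate block, 2-group fits, ordinary least squares and leaving out each array.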

Additional observations from a re-analysis of the deposited data

Results flagged for a closer look

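Of 36 groups of values (6 genes, 3 diets, deposited and quantile-normalized), 1 held an array far from the others by Dixon's test: Ntrk2 on flaxseed 1 after quantile normalization, at 11.45, with the other 3 flaxseed arrays between 10.57 and 10.68. Chance flags about 1 in 20 groups. In deposited values flaxseed 1 was also the highest of its diet, at 10.96, without standing apart. Leaving it out took the quantile-normalized flaxseed minus low-fat difference of Ntrk2 from -0.09 to -0.31 (limma adjusted p = 0.520).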

How the results depend on the processing

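Safflower minus low-fat depended on scaling. Quantile normalization, cyclic loess and median centring gave 0.11, 0.13 and 0.11 for Bdnf (deposited -0.11) and -0.020, 0.0015 and -0.016 for Ntf3. Quantile and loess gave -0.031 and 0.032 for Ntrk2 and 0.25 and 0.25 for Sort1. Median centring kept the calls of Ntrk2 at 0.48 and Sort1 at 0.69, and also called Ntrk3 at 0.41. Without the filter Ntf3 was called at -0.23. For flaxseed minus low-fat, quantile normalization and loess gave -0.0945 and -0.053 for Ntrk2, -0.025 and -0.047 for Ntrk3 and -0.18 and -0.10 for Sort1; with centring added, Bdnf was at 0.031, 0.047 and 0.029. For safflower minus flaxseed those 3 settings gave Bdnf 0.083, 0.085 and 0.0775, and centring put Ngfr at 0.088. The causes were not tested. Genes called in safflower minus low-fat numbered 6377 (3675 higher) with deposited values, 2344 with quantile, 3096 with loess, 9689 (9519 of them higher) with median centring, which moved the median of all tested genes from 0.07 to 0.28, and 10003 without the filter, where more genes were tested. Listed pathway genes called were 8, 12 and 76 under the 3 scalings against 37, and tested members 0, 0 and 3 against 2. None of the members' groups was separate with quantile. Flaxseed minus low-fat called 1 gene without the filter.

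Leaving out 1 array at a time kept Ntrk2 between 0.25 and 0.31 and Sort1 between 0.41 and 0.53 in deposited values, each called every time (adjusted p up to 0.0228 and 0.0139). Pathway calls ran from 23 (without low-fat 1) to 42, and safflower minus flaxseed called 0 to 90 genes (90 without safflower 4). Deposited Ngfr ran from -0.045 to 0.33 for flaxseed minus low-fat and from -0.19 to 0.22 for safflower minus flaxseed. Quantile-normalized ranges for safflower minus low-fat were -0.14 to 0.12 for Ntrk2, -0.073 to 0.054 for Ntrk3 and -0.024 to 0.26 for Ngfr. For flaxseed minus low-fat they were -0.31 to 0.058, -0.10 to 0.025 and -0.063 to 0.31, with Sort1 from -0.29 to 0.056. For safflower minus flaxseed they were -0.025 to 0.28 for Ntrk2, -0.0009 to 0.074 for Ntrk3 and -0.19 to 0.19 for Ngfr.

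Replicate numbers are shared by the diets, but deviations of same-numbered arrays correlated from -0.26 to 0.43, with every pair numbered 1 or 4 above 0.1 and not every pair numbered 2 or 3. The labels do not say what a number marks, and the numbers were not taken as pairs. With the replicate block Ntrk2 was at 0.26 and Sort1 at 0.41, both called, and 4652 genes were called. The unfiltered Ntf3 call was lost there (adjusted p = 0.0521). Least squares and 2-group fits kept the Ntrk2 and Sort1 calls. Each member has 1 row, so other rows of a gene or their mean gave no value. Dim signal limits Bdnf and Ntf3.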
